A study of Mus musculus with 8 samples.

Results

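The genes examined here are the 8 members of the C/EBP and GFI1 transcription factor families, chosen by gene symbol (Cebpa, Cebpb, Cebpd, Cebpe, Cebpg, Cebpz, Gfi1 and Gfi1b) from a table of 23084 genes. RNA was sequenced from myeloid cells sorted from the spleens of C57BL/6 mice aged 6 to 8 weeks. The 8 samples formed 4 groups of 2, which were wt and Lmna knockout CD11b+Ly6C+ (monocytic) cells and wt and Lmna knockout CD11b+Ly6G+ (granulocytic) cells. In the knockout, per the study's methods, floxed Lmna alleles, which encode lamin A/C, were deleted by LysM-Cre, a Cre inserted in the Lyz2 gene and so active mainly in myeloid cells. The subset was read from each sample's title, because the cell-marker label reads CD11b+Ly6C+ for all of them.

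The value used was the mean signal of each gene, which is the authors' average, over libraries, of read counts divided by a size factor for each library. The study followed Cebpe and Gfi1 as candidate factors in myeloid cells that lack lamin A/C. The 6 columns that hold the authors' comparison of the genotypes were not used, and only the pooled mean was analysed. No difference between genotypes or between subsets is therefore given, every value is 1 number without an SD or a test, and the results are the level of each gene against its paralogs and against all genes. The lowest mean signals showed how many libraries had been averaged. All 32 distinct values under 0.3 were whole-number sums of 8 steps, each the amount that 1 read of 1 library adds to the mean, within 3e-09, where the steps were found from these same low values. The size factors ran from 0.796 to 1.91, with 7 of the 8 between 0.7 and 1.1. The series has 8 samples, so the mean spans both subsets and both genotypes. A gene used strongly in 1 subset and one used moderately in both can therefore have the same mean, and in sorted bulk cells a change in the number of cells of one type cannot be told apart from a change in RNA per cell.

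C/EBP proteins bind DNA as dimers through a basic region and a leucine zipper (bZIP). C/EBPα starts the granulocyte and monocyte program in progenitors, C/EBPβ and C/EBPδ act in emergency granulopoiesis and inflammation, and C/EBPε drives the late stage at which neutrophils fill their secondary granules. C/EBPγ has the dimerization part without a transactivation domain and pairs with the others. CEBPZ carries the family's name but is a nucleolar factor of ribosome assembly. GFI1 and GFI1B are zinc finger repressors that recruit histone-modifying enzymes through a SNAG domain at the start of the protein, GFI1 mainly in lymphoid and granulocytic cells and GFI1B in erythroid cells and megakaryocytes.

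The stretch that the 5 bZIP proteins share most was found by sliding a window of 20 residues over C/EBPε and taking the best ungapped match in each of the other four. It is shown as the coding sequence, 60 bases read 5′ to 3′ from GENCODE M21 on mm10, to show how alike the DNA-binding parts of Cebpe and 3 of its paralogs are. Capitals mark the 34 bases that all 5 share.
Cebpe, chr14:54710710-54710769, minus strand: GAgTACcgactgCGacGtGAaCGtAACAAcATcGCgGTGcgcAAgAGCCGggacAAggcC
Cebpa, chr7:35120271-35120330, plus strand: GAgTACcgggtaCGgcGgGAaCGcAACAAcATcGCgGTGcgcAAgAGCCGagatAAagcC
Cebpb, chr2:167689691-167689750, plus strand: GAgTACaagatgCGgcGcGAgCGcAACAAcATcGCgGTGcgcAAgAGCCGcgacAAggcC
Cebpg, chr7:35050588-35050647, minus strand: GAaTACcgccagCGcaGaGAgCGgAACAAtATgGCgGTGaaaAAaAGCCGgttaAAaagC

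Each of these stretches lies within 1 exon, and of the 20 residues encoded, 14 are the same in all 5 proteins. Set against C/EBPε, 19 residues are the same in C/EBPα, 18 in C/EBPβ and 15 in C/EBPγ. The best match anywhere in CEBPZ has 6 of 20, near the 5 found in GFI1 and the 4 in GFI1B, which are not bZIP proteins. CHOP (gene Ddit3), a bZIP protein related to the C/EBPs, also has only 5 of 20. This count therefore does not tell bZIP proteins from others. Over their whole length the bZIP proteins are less alike. C/EBPε (281 residues) is 45.6% identical to C/EBPα (359 residues), 39.2% to C/EBPδ (268), 38.8% to C/EBPβ (296) and 34.0% to C/EBPγ (150), as a share of the shorter protein in each pair.

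For Gfi1 and Gfi1b the first 60 coding bases are shown, since they encode the SNAG domain with which both proteins begin. Capitals mark the 45 bases that the pair shares.
Gfi1, chr5:107723779-107723838, minus strand: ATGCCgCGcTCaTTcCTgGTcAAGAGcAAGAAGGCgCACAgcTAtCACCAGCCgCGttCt
Gfi1b, chr2:28615317-28615376, minus strand: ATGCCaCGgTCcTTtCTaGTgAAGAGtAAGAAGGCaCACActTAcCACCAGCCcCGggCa

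Of the 20 residues encoded, 18 are the same. GFI1 (423 residues) and GFI1B (330 residues) each hold 6 matches to the C2H2 zinc finger pattern, and from the first finger to the end 149 of 166 residues are identical (89.8%). Between the SNAG domain and the first finger the pair differ, with 31 identical residues (21.5% of the shorter part), so identity over the whole proteins is 63.9%. The longest run of identical bases between coding transcripts of any 2 members is 29 bases, between Cebpa and Cebpb, and it is 27 bases between Gfi1 and Gfi1b and 26 bases between Cebpe and Cebpa or Cebpb.

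All 8 genes were found in the table, each once, and 7 of 8 lay above the median gene, whose mean signal was 46.8. The mean signal was 784.3 for Cebpa, 3174 for Cebpb, 5036 for Cebpd, 2423 for Cebpe, 1623 for Cebpg and 1206 for Cebpz. It was 283.9 for Gfi1 and 31.8 for Gfi1b, the one member under the median gene. A long transcript collects more reads than a short one at the same number of molecules, so levels of different genes are compared per kb, after dividing the mean signal by the summed length of the gene's merged exons. The same 7 members lay above the median gene on that scale. On that scale, Cebpb ranked 528th from the top of the 23004 genes with a length, Cebpe 558th, Cebpd 847th, Gfi1 7286th and Gfi1b 11697th. The 5 C/EBP bZIP genes lay between percentile 84.3 (Cebpg) and 97.7 (Cebpb) per kb, Cebpz at percentile 83.0, Gfi1 at 68.3 and Gfi1b at 49.2.

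Cebpe (ENSMUSG00000052435), the late granulocytic factor, had 1952 units of mean signal per kb over 1241 bases of exon, 104 times the median gene's 18.85. Cebpb (ENSMUSG00000056501), which is induced in inflammation and by growth factors, had 2111 per kb and Cebpd (ENSMUSG00000071637) had 1344 per kb. Cebpe stood at 0.925 of Cebpb and at 1.45 times Cebpd, and without a spread between samples neither pair can be ordered.

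Cebpa (ENSMUSG00000034957), the factor of early progenitors, had 297.5 per kb, Cebpg (ENSMUSG00000056216) had 288.7 per kb and Cebpz (ENSMUSG00000024081) had 258.8 per kb. Cebpe was 6.56 times as high per kb as Cebpa, 6.76 times as high as Cebpg and 7.54 times as high as Cebpz. Among the 5 bZIP genes, the percentages of the summed level per kb were 35.2% for Cebpb, 32.6% for Cebpe, 22.4% for Cebpd, 4.96% for Cebpa and 4.82% for Cebpg. Cebpb, Cebpe and Cebpd thus held most of the C/EBP message and Cebpa and Cebpg little of it, with lengths from merged exons.

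**Figure D1:**
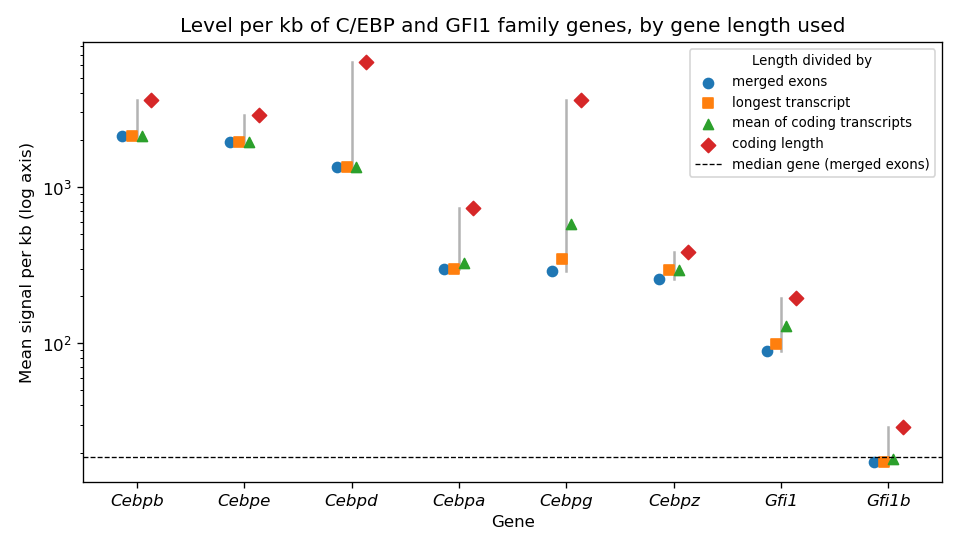
Mean signal per kb (log axis) of each of the 8 genes, where each symbol divides the same pooled mean by another length of the gene, grey lines join the lowest and highest, and the dashed line is the median gene. Cebpb, Cebpe and Cebpd form the upper group with merged exons, Gfi1b sits near the median gene, and the coding length lifts Cebpd and Cebpg most.

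The place of Cebpe depends on the length used. Cebpd has 3746 bases of exon and 804 coding bases, and Cebpg has 5621 bases of exon and 450 coding bases. Per kb of coding sequence, Cebpd had 6264, Cebpg 3606, Cebpb 3575 and Cebpe 2874, so that Cebpe stood at 0.459 of Cebpd and 0.797 of Cebpg, and its share of the 5 genes was 16.9%. Cebpe remained above Cebpa under every length, by 3.95 to 6.56 times per kb, and above Cebpz, by 6.59 to 7.54 times.

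**Figure D2:**
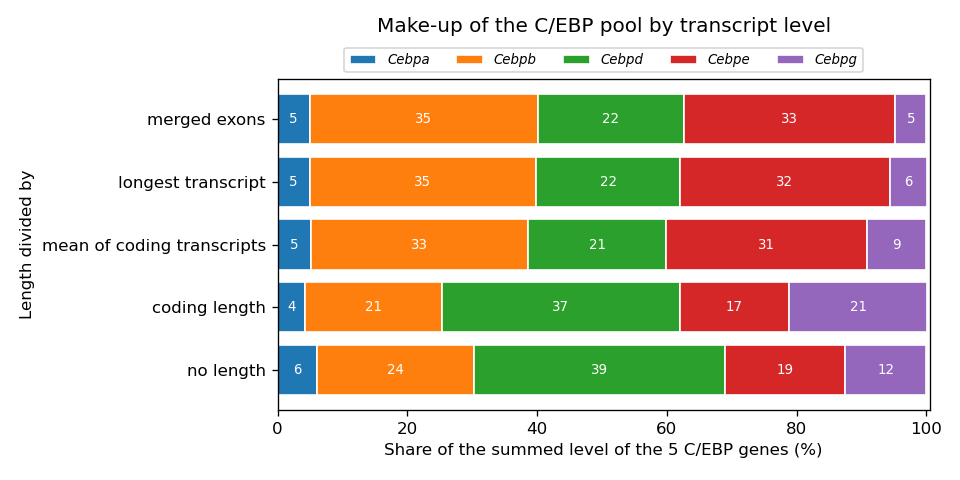
Share (%, 0 to 100) of each of the 5 bZIP genes in their summed level, with one bar for each length by which the pooled mean was divided and a last bar for the mean signal itself. Cebpe makes up 32.6% with merged exons and 16.9% with the coding length, and Cebpa stays between 4.27% and 6.01%.

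Gfi1 (ENSMUSG00000029275), the granulocytic repressor, had 89.1 units of mean signal per kb, 4.73 times the median gene. Gfi1b (ENSMUSG00000026815), its erythroid and megakaryocytic paralog, had 17.4 per kb, 0.922 of the median gene. Gfi1 was thus 5.12 times as high per kb as Gfi1b, and between 5.12 and 7.08 times as high over the 4 lengths. Both had lower pooled means per kb than the C/EBP bZIP genes and Cebpz. The nearest was Cebpz, with 258.8 per kb against 89.1 for Gfi1 with merged exons, and 382 against 193.5 with the coding length. No spread between samples stands beside these values. Cebpe was 21.9 times as high per kb as Gfi1 with merged exons and 14.9 times with the coding length, and under each of the 4 lengths Gfi1 and Gfi1b held the seventh and eighth place of the 8 genes.

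The genes lie on 6 chromosomes of mm10. Cebpg (chr7:35046422-35056573, minus strand) and Cebpa (chr7:35119293-35121928, plus strand) are neighbours, with 62719 bases between them. Cebpa, Cebpb (chr2:167688915-167690418) and Cebpd (chr16:15887286-15891031) each consist of 1 merged exon, Cebpe (chr14:54710360-54712174) of 2, and Gfi1 (chr5:107716657-107726036) of 8. Gfi1b (chr2:28609450-28621982) has 7 and Cebpz (chr17:78919006-78937066) has 16. Cebpe and Gfi1b overlap no other gene annotated in GENCODE M21. The authors counted with GENCODE M12, whose overlaps were not examined here.

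The values of some paralogs may hold reads of a neighbour, since it is not stated that counting used the strand. Cebpd shares 562 exon bases with Spidr on the opposite strand, which had a mean signal of 1043, and Cebpb shares 312 with Tmem189, which had 2448. Cebpz shares 171 with Cebpzos (126.5). Gfi1 shares a short stretch of exon with the noncoding A430072P03Rik on the opposite strand, which had 7.70, and Cebpa shares 51 with Gm45091 (1.88). Cebpg shares 73 exon bases with Gm44836 on its own strand, which counting by strand would not separate and which had a mean signal of 0.691, and it also overlaps Gm45095 and Gm45094.

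The cells gave markers of both subsets. All 9 neutrophil genes were above the median gene per kb, including Ly6g with 8337 per kb, and so were all 7 monocyte genes, among them Ly6c2 with 5260 and Ccr2 with 370.3. Of these 7, Itgam (10760 per kb) encodes CD11b, by which both subsets were sorted, so it does not mark the monocytic subset. Markers of other cells were present too. Per kb, the 6 B cell genes ran from 80.4 (Ebf1) to 4065 (Cd79a) and the 6 macrophage genes from 2084 (Adgre1) to 9704 (C1qb), while the 7 T and NK cell genes ran from 26.2 to 269.1 and the 5 dendritic cell genes from 3.77 to 34.3. What such cells added to the level of the 8 factors was not tested. Lmna itself had a mean signal of 79.5 over all libraries, and a pooled value does not check the genotype labels.

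Gfi1b was close to other genes of its own lineages. The 6 megakaryocyte and platelet genes had a median of 27.3 per kb against 17.4 for Gfi1b, and ran from 9.60 (Gp5) to 101.4 (Ppbp) per kb, with 4 of 6 above the median gene on that scale. The erythroid factors Gata1 and Klf1 had 19.21 and 35.99 per kb, whereas the globin genes Hbb-bt and Hbb-bs had 2633 and 11172. Of the 4 early progenitor genes, Myb had 84.2 per kb, Kit 40.1, Flt3 18.84 and Cd34 9.32. The values beside them were 89.1 for Gfi1, 17.4 for Gfi1b and 18.85 for the median gene. Whether such cells carried the Gfi1b reads was not tested.

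Genes downstream of C/EBPε were high. Per kb, all 8 secondary and tertiary granule genes were above the median gene, where 50% of genes are by definition, and their median was 41996 per kb, against 1952 for Cebpe. The antimicrobial Ngp had 184077 per kb, Camp, the cathelicidin gene, 96251, Ltf, which encodes lactoferrin, 60182 and Lcn2 49923. Fcnb was lowest, at 1119 per kb. Genes of the primary granules, which are made at the promyelocyte stage, had 1720 per kb for Elane, 1190 for Mpo, 1045 for Prtn3 and 541.6 for Ctsg, each higher than the 297.5 of Cebpa. The receptors counted with them had 21306 per kb for Csf3r, the receptor of G-CSF, and 3838 for Csf1r, the receptor of M-CSF. The 8 primary granule and receptor genes had a median of 1455 per kb.

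**Figure D3:**
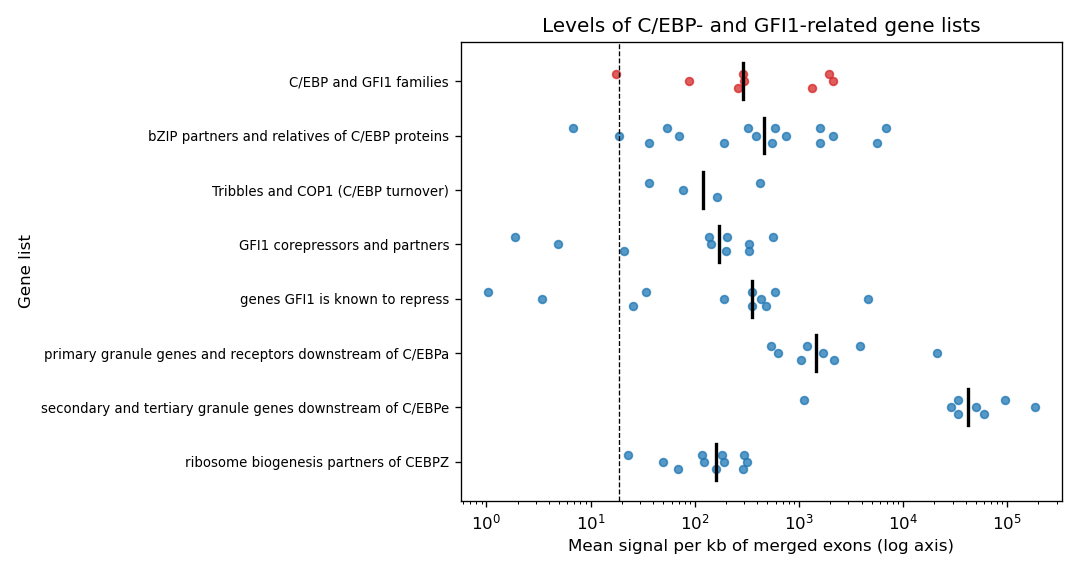
Mean signal per kb of merged exons (log axis) of each gene in the 8 lists, with 1 point per gene, a black bar at the median of each list and a dashed line at the median gene. The C/EBP and GFI1 families (red) run from 17.4 to 2111 per kb, and 7 of the 8 secondary and tertiary granule genes lie above all of them.

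Of 16 other bZIP genes whose proteins pair with or resemble C/EBP proteins, 15 were above the median gene per kb. The AP-1 genes Junb and Fos had 6806 and 5587 per kb, against 2111 for Cebpb. Jund, also of AP-1, had 2135 per kb, close to Cebpb, and the rest were lower than Cebpb. Atf4, the stress-response factor that can pair with C/EBPs, had 1602. Ddit3, which encodes the C/EBP relative CHOP, had 389.2 per kb, against 297.5 for Cebpa. Of the clock-related PAR factors, Tef (71.45 per kb) and Dbp (36.65) were above the median gene's 18.85, and Hlf (6.83) was under it. Of the genes for C/EBP turnover, the pseudokinase Trib1, which directs C/EBPα to degradation, had 422.5 per kb and Trib2 77.7. COP1, the ubiquitin ligase that Tribbles proteins recruit, is listed under its older symbol Rfwd2 and had 164.9.

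Most genes of the enzymes and partners that GFI1 recruits were higher than Gfi1. Of 10 such genes, 8 were above the median gene per kb, 7 had more signal per kb than Gfi1, and their median was 170.4 per kb against 89.1 for Gfi1. Hdac1, a histone deacetylase, had 563.4 per kb, Rcor1, which encodes CoREST, 331.8, the H3K9 methyltransferase Ehmt2 330.9 and Kdm1a, the histone demethylase bound by the SNAG domain, 206.0. Rcor2 (4.87) and Ajuba (1.87) were the lowest. Among 11 genes that GFI1 is known to repress, 9 were above the median gene per kb, including Spi1, the gene of PU.1, with 4622 per kb, Irf8, a monocytic factor, with 488.8 and Csf1 with 433.0. Hoxa9 (1.04) and Meis1 (3.415), both progenitor genes, were lowest.

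Cebpz lay within the range of its own pathway. The 11 genes of its ribosome assembly partners were all above the median gene per kb, with a median of 159.1 per kb against 258.8 for Cebpz. Noc2l, of the NOC family to which CEBPZ belongs, had 317.3 per kb, Pes1 297.7 and Mybbp1a 290.4, while Wdr12 was lowest at 22.9.

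Promoter sequence was at hand in RefSeq (GRCm38.p6, the assembly of mm10) for 5 of the 8 genes, in 6 windows from 250 bases before to 50 after a start site, 2 of them for Gfi1. Positions are counted from the RefSeq start of each window. Cebpd, Cebpe and Cebpz were not analysed here. On both strands, the CCAAT box (CCAAT), from which the C/EBP family takes its name, was found in Cebpg and Gfi1b, and 37.4% of 32851 such windows hold one. The C/EBP motif TTGCNNAA was found in the upstream Gfi1 window (10.8% of all windows), and the GFI1 motif AATCNNNGC in no window (10.3% of all). The matches are printed with 12 flanking bases and the motif in capitals, on the gene's strand, and none overlaps another.
Gfi1, C/EBP motif 143 bases before the RefSeq start and inside the longer GENCODE gene, chr5:107725929-107725960: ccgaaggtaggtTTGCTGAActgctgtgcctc
Cebpg, inverted CCAAT 89 bases before the start, chr7:35056639-35056667: acacggcctgtgATTGGctggtggagctg
Cebpg, inverted CCAAT 28 bases before the start, chr7:35056578-35056606: agcagcgcttctATTGGtcacggcggcgg
Gfi1b, inverted CCAAT 83 bases before the start, chr2:28622049-28622077: cgcgctctggtcATTGGctgacgctgcag

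A match is a description of the letters, and binding at these places was not measured here.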

How the data were processed

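Per the labels and the study's methods, the authors used Cutadapt 1.14 for trimming, STAR 2.5.2b for alignment (mm10, GENCODE M12), RSEM 1.3.0 for gene quantification and DESeq2 1.20.0 for normalization and testing. The deposited mean signal is the authors' average of normalized counts over libraries. The other 6 columns (log2 fold change, its standard error, test statistic, p-value, adjusted p-value and signed fold change) hold the authors' comparison of Lmna knockout with wt cells and were not read. A count test was planned in case there were values per sample. The values used have no column for a single sample, so the test could not be run on them. The table gives no total per library, and the size factors found from its lowest values (0.796 to 1.91) show relative depth only.

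Libraries averaged were counted from the lowest values. Of the 48 whole-number sums of the 8 steps that fall under 0.3, the 16 that need reads of 1 library only do not occur, so genes with reads in a single library appear to be left out. Lengths came from GENCODE M21 (23004 of 23084 genes matched by identifier), a later release on the same build. The table repeats 28 symbols, none of them a member; of the listed genes only Itgam is repeated, and its higher value was taken. Proteins were translated from the principal transcript and aligned with Biopython 1.88 (BLOSUM62, free end gaps), under Python 3.11.15. Steps, ranks, lengths and the window search were tested on simulated data. The simulation of the steps had 8 libraries and kept only genes with reads in more than 1 library. Other numbers of libraries were not simulated. The genes named are the 8 members and the fixed lists. The members and lists were chosen with earlier results of these data known. One sequence of the bZIP stretch is not reported here.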

Additional observations from a re-analysis of the deposited data

How the results depend on the processing

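No paired analysis was possible because only a mean over all libraries was used. For the same reason the count test, its other scalings and filters, and the fits without each sample were not run, so how far 1 library sets a value is unknown. Against the median of genes with a mean of at least 1, or of protein-coding genes, 7 members were still above it, while the bZIP relatives fell from 15 to 12 of 16 and the genes repressed by GFI1 from 9 to 7 of 11. The Tribbles and COP1 list fell from 4 to 3 against both, and the CEBPZ partners from 11 to 10 against protein-coding genes. Counted per kb, an alternative chosen after seeing the data, the 8 lists in the plot of lists gave the same counts, while the megakaryocyte genes went from 2 to 4 of 6, T and NK cell genes from 6 to 7 of 7, early progenitor genes from 4 to 2 of 4 and dendritic cell genes from 4 to 2 of 5. Every listed gene has a mean above 0, so the alternative of all listed genes gives the same values. The share of Cebpe among the 5 bZIP genes was 32.3% with the longest transcript, 30.9% with the mean of coding transcripts, 16.9% with the coding length and 18.6% with no length. Gfi1 over Gfi1b was 5.69, 7.08, 6.62 and 8.92 in the same order. Cebpe over Cebpd turned to 0.459 with the coding length and 0.481 with no length, and Cebpe over Cebpg to 0.797 with the coding length, which leaves out the long untranslated parts of Cebpd and Cebpg. The percentile of Gfi1b was between 15.0, among genes with a mean of at least 10, and 49.2, ranked per kb. Among genes with a mean of at least 10, Gfi1 was at percentile 45.3 and so also under the median. The C/EBP bZIP genes and Cebpz were at percentile 65.2 (Cebpa) or higher there.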
